A study of Mus musculus with 3 samples.

Results

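The 39 *Hox* genes of the mouse were followed through every cell cluster of 3 single-cell RNA libraries. Members were all genes whose symbol is *Hox*, a letter from a to d and a number, and all 39 were listed among the 27755 genes of the D10 culture and E14.5 tail tables and among the 25936 genes of the D6 PM table. The D10 culture was derived from mouse embryonic stem cells (mESCs) that carry the ScxGFP reporter, in which regulatory sequence of the tendon transcription factor *Scx* drives GFP. These cells received the BMP inhibitor LDN-193189 from D0 to D6 and the Wnt agonist CHIR from D2 to D6, and then TGFβ1, the hedgehog agonist SAG and FGF2 from D6 to D10. The D6 PM sample was taken at the paraxial mesoderm (PM) step of the same protocol, after LDN-193189 and CHIR only. The E14.5 tail sample came from tails of mouse embryos that carry ScxGFP. Each sample was 1 library, so no difference between libraries could be set against replicate error, no p-value is given, and origin, stage and library cannot be told apart. More than 1 ScxGFP mESC line was used in the study and the sources do not say which gave these libraries. All intervals are 95% intervals for counting error only.

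*Hox* genes encode homeodomain transcription factors that give cells their position along the body axis. In the mouse they lie in 4 genomic clusters, HoxA on chromosome 6, HoxB on chromosome 11, HoxC on chromosome 15 and HoxD on chromosome 2, and genes that hold the same place in different clusters form a paralogue group, numbered 1 to 13. Within a cluster, low-numbered genes switch on first and reach farthest toward the head, and high-numbered genes switch on last and are confined to the tail end, the order known as collinearity. Groups 1 to 3 are called anterior here (8 genes), groups 4 to 8 central (15 genes) and groups 9 to 13 posterior (16 genes). In limbs, the HoxA and HoxD genes of the highest groups pattern the skeleton, and in the trunk and tail the posterior groups mark lumbar, sacral and caudal levels.

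RefSeq start sites (assembly GRCm38.p6) were on hand for 22 of the 39 genes, at 24 starts, and the 250 bases before a start are printed for 4 genes that the comparisons below turn on. *Hoxb4* and *Hoxd8* had high levels in the cultured tendon cells, *Hoxa10* led the tail tendon cells and *Hoxb8* led the tail nerve cells. Capitals mark matches on either strand to AGGTCA (the half-site of retinoic acid receptors), TTTATG (bound by Cdx factors) or TGATNNAT (bound by Hox with Pbx partners). The window of *Hoxb4* lies at chr11:96318017-96318266 on the plus strand:
Hoxb4: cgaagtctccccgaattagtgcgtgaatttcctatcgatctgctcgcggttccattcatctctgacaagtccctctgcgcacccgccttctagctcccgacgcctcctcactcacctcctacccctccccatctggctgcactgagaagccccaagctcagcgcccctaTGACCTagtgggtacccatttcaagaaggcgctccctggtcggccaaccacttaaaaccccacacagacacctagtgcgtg
The window of *Hoxd8* lies at chr2:74704365-74704614 on the plus strand:
Hoxd8: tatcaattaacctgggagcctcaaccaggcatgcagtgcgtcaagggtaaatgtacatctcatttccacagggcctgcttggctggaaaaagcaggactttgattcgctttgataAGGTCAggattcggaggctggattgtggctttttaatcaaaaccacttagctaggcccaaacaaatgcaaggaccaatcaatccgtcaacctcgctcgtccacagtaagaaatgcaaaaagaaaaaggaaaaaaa
*Hoxa10* has 2 starts in RefSeq, and the nearer one to *Hoxa9* has its window at chr6:52234940-52235189 on the minus strand:
Hoxa10: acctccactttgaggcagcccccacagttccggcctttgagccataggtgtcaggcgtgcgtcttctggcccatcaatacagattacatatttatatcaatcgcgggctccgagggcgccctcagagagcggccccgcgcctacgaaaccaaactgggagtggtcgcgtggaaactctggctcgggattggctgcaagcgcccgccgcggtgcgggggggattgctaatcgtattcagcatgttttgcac
The window of *Hoxb8* lies at chr11:96281655-96281904 on the plus strand:
Hoxb8: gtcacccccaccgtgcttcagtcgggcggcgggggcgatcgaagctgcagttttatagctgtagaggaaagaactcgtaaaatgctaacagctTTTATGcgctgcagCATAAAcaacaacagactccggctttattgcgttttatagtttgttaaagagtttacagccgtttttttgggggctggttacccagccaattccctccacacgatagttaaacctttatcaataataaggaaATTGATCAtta
The windows of *Hoxb4* and *Hoxd8* each held 1 AGGTCA, that of *Hoxb8* held 2 TTTATG and 1 TGATNNAT, and neither window of *Hoxa10* held a match. AGGTCA was found at 6 of 24 *Hox* starts (25%) and at 14.02% of all 32851 starts in the table. TTTATG was found at 5 of 24 *Hox* starts (20.8%) against 10.8% of all starts. TGATNNAT was found at 4 of 24 (16.7%) against 7.68%. A match to so short a motif is a description of the sequence and not a binding site.

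The measurement was the unique molecular identifier (UMI) count, one per captured RNA molecule, from the 3′ end of transcripts. UMIs of all cells in a cluster were summed and divided by the cluster's total UMIs, giving CPM, counts scaled to a common total. Because each molecule is counted once at its 3′ end, no correction for gene length was made when genes were set side by side. The D10 culture held 7821 cells with 53403944 UMIs (median 5622 per cell), the E14.5 tail 2052 cells with 31343741 UMIs (median 13512) and D6 PM 5954 cells with 51858825 UMIs (median 8171). Cell clusters are those of the deposited annotation, in which the culture and tail libraries share 1 set of cluster numbers. They had been computed from gene expression, and *Hox* genes may be among the genes used, so levels across clusters of a library are a description. In droplet data free RNA gives UMIs in cells that do not express a gene, and the tail blood cluster, led by haemoglobin (*Hbb-bt*, 214392 CPM), gives its size in the tail library. The 128 blood cells held 10 *Hox* UMIs in all (9.42 CPM, 4.52 to 17.3). For the culture and D6 PM libraries the level of free RNA was not measured, and low *Hox* levels there may include it.

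Summed over the 39 genes, the *Hox* level was 330.5 CPM in the D10 culture, 1347 CPM in the tail and 184 CPM in D6 PM. Of the 39 genes, 38 had a UMI in the D10 culture, with *Hoxc12* at 0, and all 39 had one in the tail and in D6 PM. The heat map of *Hox* genes by cluster shows how unevenly this was spread over cell types. In the tail, the nerve-annotated cluster had 6136 CPM (6018 to 6255) and stood above every other cluster by a factor of more than 4. Tail tendon cells had 1298 CPM (1276 to 1321), and fibrocartilage, muscle, skin and Schwann-like cells lay between 883 and 1234 CPM. In the culture, tendon, proliferating tendon and fibrocartilage cells had 503 CPM (493 to 514), 507 CPM (494 to 521) and 577 CPM (552 to 603). Tendon and proliferating tendon cells of the culture did not differ beyond their intervals. Pluripotent-like cells of the culture, which kept *Pou5f1* at 545 CPM, had a *Hox* level of 29.2 CPM (26.2 to 32.4), and epithelial cells of the culture had 28.3 CPM (18.9 to 40.6). In D6 PM, cells with the somite and paraxial mesoderm genes *Meox1* (187 CPM) and *Foxc2* (64.5 CPM) had a *Hox* level of 665 CPM (644 to 686), and the endoderm-like and pluripotent-like clusters had between 72.4 and 90.4 CPM. The blood-annotated cluster 5 had 123 CPM in the culture and 248 CPM in the tail. Cluster 6, whose cells had median depths of only 1424 UMIs in the culture and 1881 in the tail, had 424 and 731 CPM. Culture clusters 9, 11 and 13 held 2, 1 and 1 cells and are not described further.

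**Figure D1:**
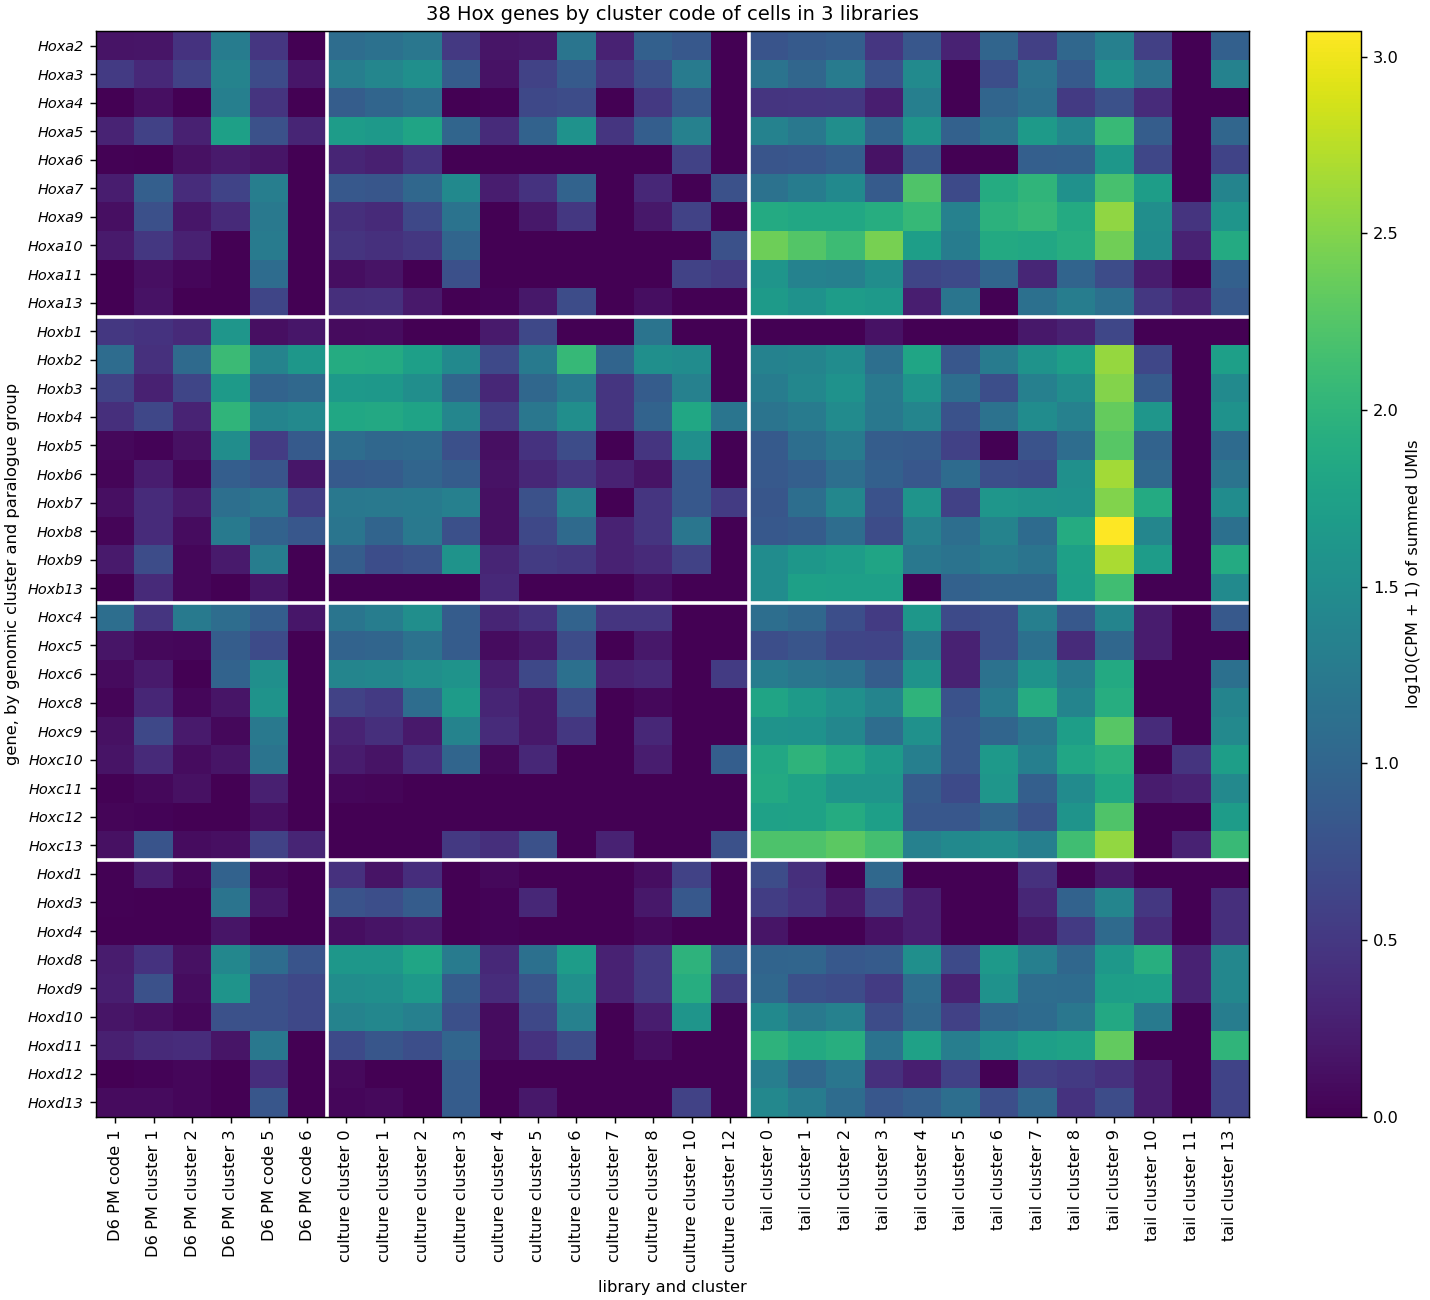
Each row is 1 of 38 *Hox* genes, ordered by genomic cluster and paralogue group, each column is 1 cell cluster of the D10 culture, the E14.5 tail or D6 PM, and the colour is log10(CPM + 1) of summed UMIs. The posterior rows other than *Hoxd9* and *Hoxd10* are clearly darker in the culture tendon column than in the tail tendon column, and each HoxB row other than *Hoxb1* is brightest in the tail nerve column.

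Tendon cells are the population that the culture was designed to produce, and cluster 0 holds them in both libraries, 2964 in the culture library and 685 in that of the tail. The cluster carried the tendon gene *Scx* in each, at 2410 CPM in the culture and 1472 CPM in the tail. The 2 groups of cells differed both in the level of *Hox* RNA and in which paralogue groups it came from. The *Hox* sum in culture tendon cells was 0.388 times that in tail tendon cells (0.377 to 0.398). Anterior genes together were higher in the culture, 162 against 67.2 CPM, a ratio of 2.41 (2.21 to 2.62). Central genes together were 269 against 187 CPM, a ratio of 1.44 (1.36 to 1.52). Posterior genes together were 72.3 against 1044 CPM, a ratio of 0.0693 (0.0652 to 0.0736). The shares of the 3 bands in the *Hox* UMIs were 32.1%, 53.5% and 14.4% in culture tendon cells and 5.2%, 14.4% and 80.4% in tail tendon cells. The mean paralogue group of a *Hox* UMI, a summary of position along the series, was 5.15 ± 0.03 for culture tendon cells and 9.87 ± 0.02 for their tail counterparts (counting SE).

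The step between the 2 libraries lay among the posterior groups. Group 8 was at 58.3 CPM (54.7 to 62.1) in culture tendon cells and 76.2 CPM (71.0 to 81.8) in tail tendon cells. Group 9 was at 40.9 against 151 CPM, group 10 at 25.3 against 346 CPM and group 11 at 4.34 against 206 CPM. Group 13 was at 1.69 CPM (1.12 to 2.44) in the culture and 264 CPM (254 to 275) in the tail. Groups 9 and 10 together were 0.133 times the tail level in the culture (0.125 to 0.142), and groups 11 to 13 together were 0.0113 times (0.00924 to 0.0138). The plot by paralogue group shows the culture and D6 PM curves running near each other from group 2 to group 9 and the tail curve crossing both.

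**Figure D2:**
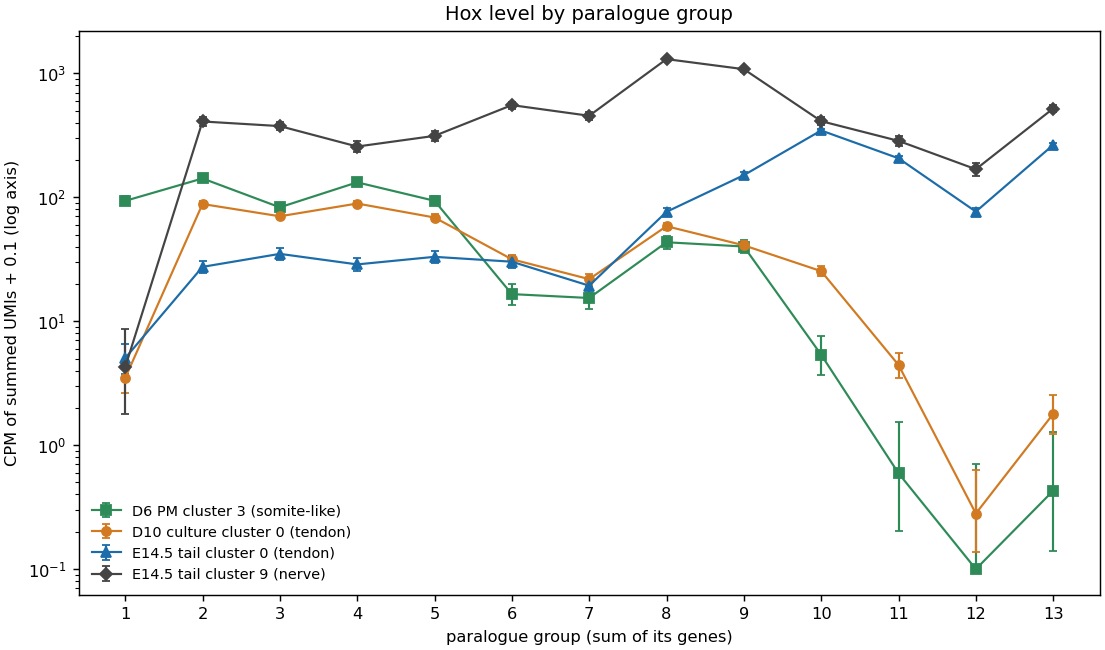
Summed CPM of each paralogue group (plus 0.1, log axis) against group number for tendon cells of the D10 culture and E14.5 tail, tail nerve cells and somite-like cells of D6 PM, with 95% counting intervals. Culture tendon cells fall from 25.3 CPM in group 10 to 1.69 CPM in group 13, whereas tail tendon cells have 346 and 264 CPM there.

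A gene was counted as different where its CPM ratio was at least 2 or at most 0.5, and only genes that reached 20 UMIs in the 2 groups together were tested. Of 37 *Hox* genes with enough UMIs in tendon cells, 11 were higher in the culture, 18 were lower and 8 lay between. Over all 15909 genes tested, 30.1% were 2-fold apart, 9.41% higher and 20.7% lower in the culture. The median log2 ratio was -0.31 over the *Hox* genes and -0.25 over all genes tested, and taken relative to that median 14 *Hox* genes were higher and 16 lower. *Hoxb1* and *Hoxd4* had too few UMIs, 4 and 0 for *Hoxb1* and 5 and 5 for *Hoxd4* in culture and tail. A gene at 0 in 1 library was set to 3 UMIs over its group, which gives a bound in place of a ratio.

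Among anterior genes, *Hoxb2*, which is best known for its role in the hindbrain, was the most abundant *Hox* gene of culture tendon cells. It had 1270 UMIs (76.6 CPM) in the culture against 224 UMIs (22.1 CPM) in the tail, a ratio of 3.46 whose interval ended at 4.01. Its group-2 paralogue *Hoxa2* was at 11.6 against 5.23 CPM, a ratio of 2.22 (1.63 to 3.07) that was 3.36 with every cell thinned to 3000 UMIs. *Hoxb3* was at 45.4 against 18.4 CPM, a ratio of 2.47 (2.10 to 2.92), and *Hoxd3* was at 5.18 against 2.57 CPM, a ratio of 2.02 (1.29 to 3.26) that fell to 1.97 when mitochondrial, ribosomal protein and haemoglobin genes were left out of the total. *Hoxa3* lay between the limits, at 19.5 against 13.9 CPM. *Hoxd1* was the one anterior gene that was lower in the culture, at 1.75 against 4.15 CPM (0.421, 0.253 to 0.693).

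Central genes ran both ways. *Hoxb4*, a neck-level gene, was at 66.8 CPM in the culture and 14.2 CPM in the tail, a ratio of 4.70 (3.95 to 5.63) and the largest of the 11. *Hoxa4* was at 7.11 against 1.98 CPM (3.60, 2.23 to 6.11), and *Hoxa5*, a gene of the neck and upper trunk, was at 48.4 against 22.2 CPM (2.18, 1.88 to 2.54). *Hoxb7* and *Hoxb8* were higher as well, at 15.8 against 5.73 CPM and 14.47 against 6.02 CPM. *Hoxd8*, the HoxD member of group 8, was at 40.9 against 8.79 CPM (4.65, 3.72 to 5.87). In the same paralogue group *Hoxc8*, a thoracic gene, ran the other way, at 3.01 against 61.4 CPM (0.0491, 0.0360 to 0.0655). *Hoxa6* and *Hoxa7* were lower too, at 1.09 against 5.43 CPM and 5.97 against 13.5 CPM. The remaining central genes with enough UMIs, *Hoxb5*, *Hoxb6*, *Hoxc4*, *Hoxc5* and *Hoxc6*, had ratios between 1.05 and 1.91. With every cell thinned to 3000 UMIs, *Hoxb6* had a ratio of 3.59 and *Hoxa5* one of 1.996, which moved each across the limit of 2. The thinned *Hoxb6* ratio rests on 55 UMIs in the culture and only 4 in the tail. HoxB as a whole was 1.76 times the tail level (1.66 to 1.87), HoxD 0.545 times, HoxA 0.214 times and HoxC 0.105 times (0.0979 to 0.113).

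Of the 16 posterior genes, 14 were lower in the culture and *Hoxd9* was higher. *Hoxd9* had 516 UMIs (31.1 CPM) in culture tendon cells and 97 UMIs (9.58 CPM) in tail tendon cells, a ratio of 3.25 (2.61 to 4.08). Its neighbour *Hoxd10* was at 22.7 against 28.0 CPM (0.808, 0.691 to 0.946), inside the limits of the rule. With *Hoxd8*, these 2 genes form an unbroken stretch of HoxD that was at 22.7 to 40.9 CPM in the culture. The next gene along, *Hoxd11*, was at 3.92 CPM in the culture and at 95.1 CPM in the tail (0.0412, 0.0315 to 0.0530). The group-9 paralogues of *Hoxd9* did not share its level, with *Hoxa9* at 1.63 against 74.3 CPM (0.0219), *Hoxc9* at 1.02 against 36.7 CPM (0.0279) and *Hoxb9* at 7.11 against 30.1 CPM (0.236).

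*Hoxa10*, a lumbar-level gene that is needed for rib-free vertebrae, was the most abundant *Hox* gene of tail tendon cells with 2519 UMIs (249 CPM, 19.2% of their *Hox* UMIs). Culture tendon cells had 31 UMIs of it (1.87 CPM), a ratio of 0.00751 (0.00509 to 0.0107). *Hoxc10* was at 0.723 against 69.1 CPM (0.0105). *Hoxa11*, known for its part in the forearm and the kidney, was at 0.301 against 38.7 CPM (0.00778), and *Hoxa13*, which acts in the hand, foot and hindgut, was at 1.57 against 45.7 CPM (0.0343). *Hoxc11* had 2 UMIs in the culture and 734 in the tail (0.00166, 0.000201 to 0.00603). *Hoxd12* had 3 and 201 UMIs (0.00911, 0.00186 to 0.0270), and *Hoxd13* had 2 and 264 (0.00462, 0.000557 to 0.0169). *Hoxb13*, *Hoxc12* and *Hoxc13* had no UMI among 16589854 in culture tendon cells, which allows up to 0.181 CPM for each. In tail tendon cells they had 303, 574 and 1647 UMIs, so that the culture levels were at most 0.00604, 0.00319 and 0.00111 times those of the tail. With thinned cells these bounds were 0.0115, 0.00581 and 0.00238, and the ratios of *Hoxd12* and *Hoxd13* were 0.00502 and 0.0124.

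**Figure D3:**
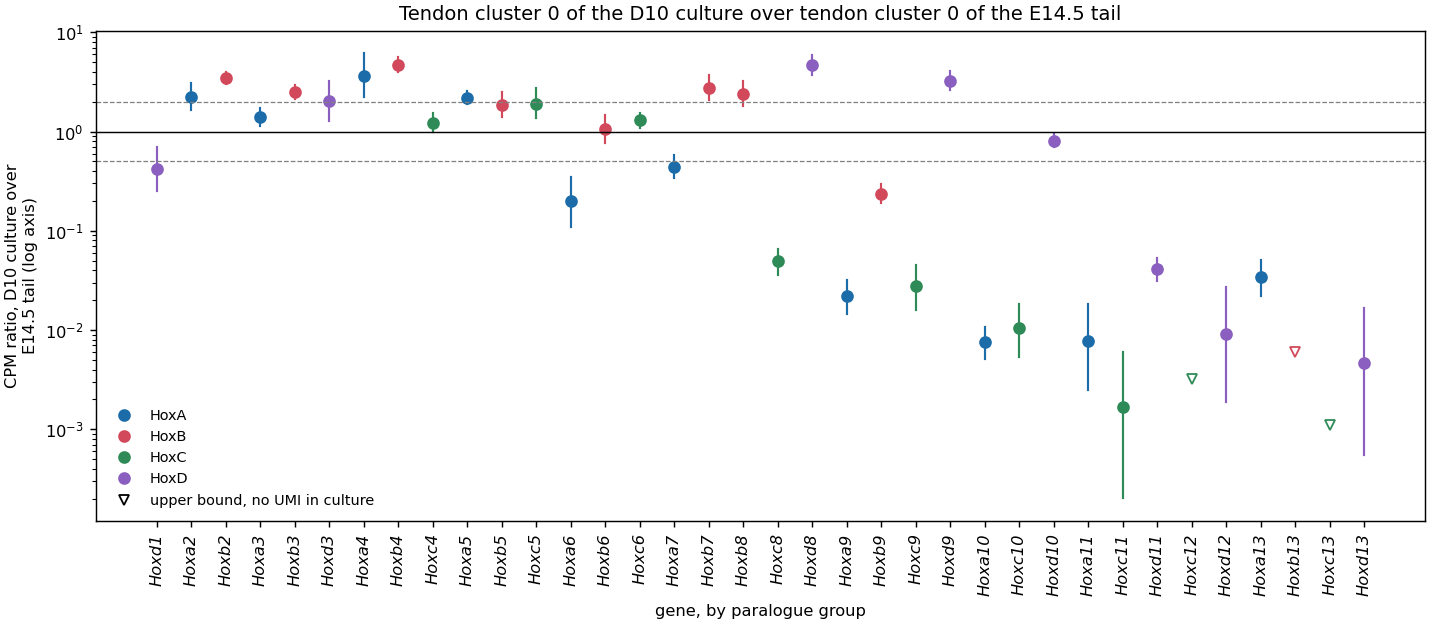
CPM ratio of D10 culture over E14.5 tail in tendon cluster 0 for *Hox* genes with at least 20 UMIs (log axis), ordered by paralogue group and coloured by genomic cluster, with 95% counting intervals and open triangles for bounds. The points fall away from group 9 on, except *Hoxd9* at 3.25 and *Hoxd10* at 0.808.

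In the other 2 *Scx* populations the posterior sum was again lower in the culture, at 0.0810 times the tail level in proliferating tendon cells (0.0751 to 0.0874) and 0.0918 times in fibrocartilage cells (0.0809 to 0.104). The anterior sum was 2.35 times the tail level in proliferating tendon cells (2.08 to 2.66) and stayed under 2-fold in fibrocartilage cells, at 1.56 (1.35 to 1.80). In proliferating tendon cells 9 of 35 *Hox* genes were higher in the culture and 17 lower, with 23.9% of all genes 2-fold apart (8.38% higher, 15.5% lower). In fibrocartilage cells, which carried *Col2a1* at 2271 CPM in the culture and 4282 CPM in the tail, the counts were again 9 and 17 of 35, with 22.7% of all genes apart (7.78% higher, 14.9% lower). The *Hox* sum was 0.427 times the tail level in proliferating tendon cells (0.411 to 0.444) and 0.468 times in fibrocartilage cells (0.443 to 0.494). The HoxB sum was 1.16 times the tail level in proliferating tendon cells (1.07 to 1.25) and 0.765 times in fibrocartilage cells (0.691 to 0.847). *Hoxd9* was higher than in the tail in both, with ratios of 7.08 (4.51 to 11.7) and 10.6 (6.11 to 19.8). *Hoxd8* did so too, with ratios of 4.58 and 10.4. *Hoxc4*, *Hoxc5* and *Hoxc6* were higher in culture fibrocartilage cells by ratios of 7.03, 3.98 and 2.43, where tendon cells had 1.23, 1.91 and 1.29. Over the 3 populations together, posterior genes made up 14.6% of culture *Hox* UMIs (14.04 to 15.2) and 78.9% of tail *Hox* UMIs (78.3 to 79.4).

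Fibrocartilage and tendon cells were also compared within each library. In the culture 3 of 28 *Hox* genes were higher in fibrocartilage cells (*Hoxc8*, 3.79; *Hoxa9*, 2.22; *Hoxc4*, 2.17) and 1 was lower (*Hoxa13*), beside 12.3% of all genes (3.84% higher, 8.46% lower). *Hoxc8* was at 11.4 CPM in culture fibrocartilage cells, against 33.6 CPM in their tail counterparts. In the tail 5 of 36 were higher in fibrocartilage cells and 5 lower, beside 15.5% of all genes (4.68% higher, 10.9% lower). The 5 higher ones were *Hoxa7* and *Hoxb4* to *Hoxb7*, a run of central genes, of which *Hoxb7* had the largest ratio at 4.49 (3.18 to 6.38). The HoxB sum of tail fibrocartilage cells was 1.92 times that of tail tendon cells (1.76 to 2.09).

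Tendon cells of the D10 culture were also set beside somite-like cells of D6 PM, a separate library with the same first 6 days of treatment. Whether tendon cells descend from such cells was not tested. The *Hox* sum of culture tendon cells was 0.757 times that of somite-like cells (0.729 to 0.786). Of 29 *Hox* genes tested, 7 were higher at D10, 6 were lower and 16 lay between, with 28.9% of all genes 2-fold apart (13.8% higher, 15.1% lower). *Hoxb1*, an early gene that is known for its part in the hindbrain, had the smallest ratio, at 39.6 CPM in somite-like cells and 0.241 CPM in culture tendon cells (0.00608, 0.00164 to 0.0158). *Hoxd1*, *Hoxd3*, *Hoxa4* and *Hoxb5* were lower as well, with ratios of 0.213 to 0.376. The 7 genes that were higher at D10 were *Hoxc6* (2.80), *Hoxc8* (6.11), *Hoxb9* (10.8), *Hoxd10* (4.75), *Hoxd11* (7.94), *Hoxa10* (at least 3.79) and *Hoxa13* (at least 3.18). *Hoxd10* had the highest level of these beside *Hoxc6*, at 22.7 CPM against 4.77 CPM. *Hoxd9* was at 37.8 CPM in somite-like cells, against 31.1 CPM in culture tendon cells. Groups 11 to 13 together were 7.55 times higher at D10 (3.13 to 23.7), though at only 6.21 against 0.823 CPM. By the mean paralogue group, somite-like cells stood at 3.90 ± 0.04 and culture tendon cells at 5.15 ± 0.03. Over the 39 genes Spearman's rho between the 2 profiles was 0.77, while that between culture and tail tendon cells was -0.26. The genes are not independent of each other, and these correlations are descriptions.

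**Figure D4:**
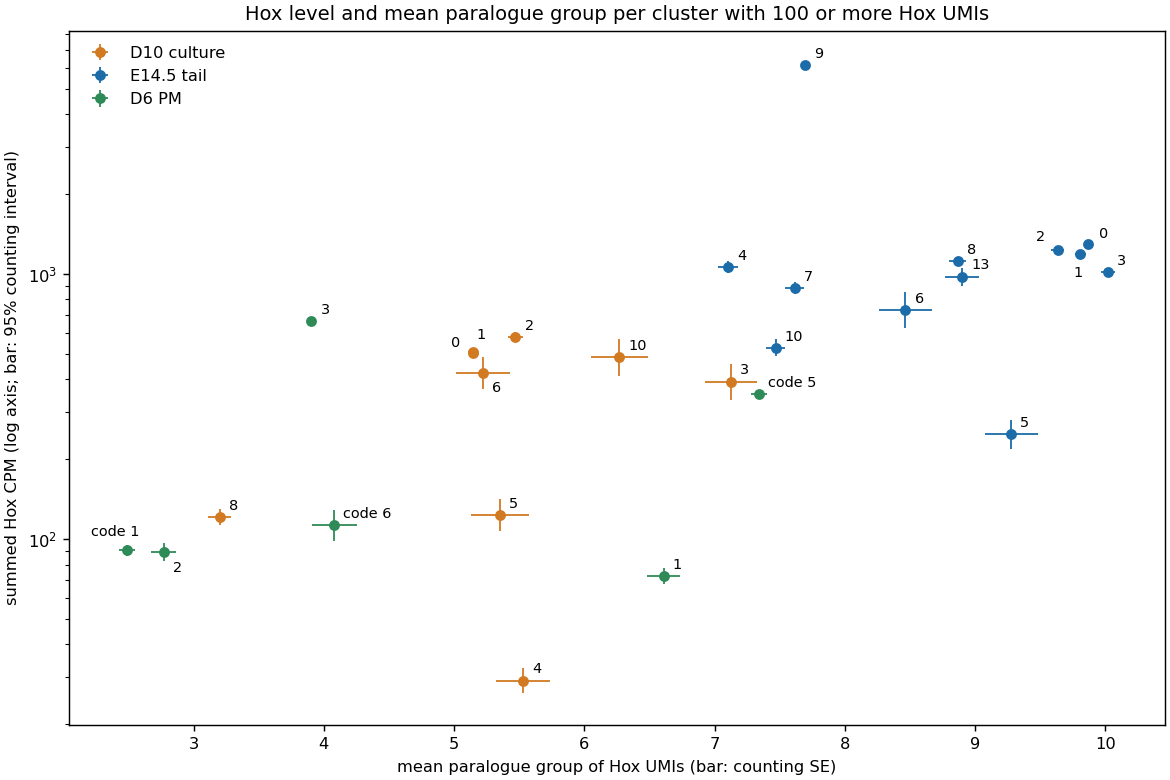
Summed *Hox* CPM (log axis, 95% counting interval) against the mean paralogue group of *Hox* UMIs (counting SE) for each cluster with at least 100 *Hox* UMIs. Tail tendon, fibrocartilage and cluster 3 cells lie at 9.64 and above, culture tendon cells at 5.15 and D6 PM somite-like cells at 3.90, and tail nerve cells stand alone at 6136 CPM and 7.70.

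In D6 PM itself the *Hox* genes set the clusters apart. Compared with the endoderm-like code 1, which carried *Sox17* at 519 CPM, somite-like cells were higher in 20 of 22 *Hox* genes and lower in none, while 28% of all genes were 2-fold apart (13.8% higher, 14.2% lower). The *Hox* sum was 7.35 times higher (6.94 to 7.79). Central genes differed most as a band, with a ratio of 17.1 (15.1 to 19.3), and *Hoxd3* had a ratio of 260.1 that rests on 1 UMI in code 1 (45.5 to 10390.1). *Hoxa4*, with no UMI in code 1, was at least 121 times higher. *Hoxc4* lay between the limits, at 11.5 CPM in somite-like cells and 11.9 CPM in code 1. Genes of groups 11 to 13 had too few UMIs to be tested singly. Together they were at 0.823 CPM in somite-like cells and 1.65 CPM in code 1 (0.498, 0.151 to 1.30). Code 6, 194 cells with haemoglobin and endothelial genes, had a *Hox* sum of 112 CPM (97.8 to 129), of which HoxB made up 84.0% and *Hoxb2* alone 37.1%.

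A second D6 PM population had another profile. Code 5, 662 cells with *Dcn* at 901 CPM and *Scx* at 5.43 CPM, had a *Hox* sum of 350.5 CPM (336 to 366) and a mean paralogue group of 7.34 ± 0.06. Compared with somite-like cells, 13 of 33 *Hox* genes were higher and 15 lower, beside 44% of all genes (18.1% higher, 25.9% lower). All 5 tested HoxC genes above group 5 had ratios of 3.81 or more, with *Hoxc8* at 36.8 against 0.494 CPM (74.5, 25.2 to 364) and *Hoxc6* at 32.6 against 8.56 CPM. Posterior HoxA genes were present as well, with *Hoxa10* at 18.1 CPM and *Hoxa11* at 11.2 CPM where somite-like cells had no UMI of either. Groups 11 to 13 were at 42.6 CPM against 0.823 CPM (51.7, 21.9 to 161). In the D10 culture, cluster 3 (53 cells, *Dcn* at 681 CPM and the myeloid gene *Tyrobp* at 512 CPM) had the profile most like it, with a Spearman's rho of 0.92 over 39 genes. Between those 2 clusters none of 24 *Hox* genes was 2-fold higher and 1 was lower (*Hoxa11*, on 2 UMIs), against 20.5% of all genes (9.07% higher, 11.4% lower). The mESCs had been kept on mouse embryonic fibroblasts before differentiation, and whether such feeder cells are among these clusters was not tested.

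The posterior sum of culture cluster 3 was 1.83 times that of culture tendon cells (1.38 to 2.38), and its posterior genes ran both ways. Of 24 *Hox* genes tested, 7 were higher there and 12 lower, beside 36% of all genes (15.1% higher, 20.9% lower). *Hoxc9* was at 22.8 against 1.02 CPM (22.2, 9.10 to 51.4) and *Hoxc8* at 47.8 against 3.01 CPM (15.9, 9.05 to 26.9). *Hoxb9*, *Hoxa9*, *Hoxa10* and *Hoxa7* followed, with ratios of 5.12, 8.40, 4.88 and 4.58. *Hoxd9* and *Hoxd10*, the most abundant posterior genes of culture tendon cells, were lower, at 6.83 against 31.1 CPM (0.220, 0.0452 to 0.646) and 4.56 against 22.7 CPM (0.201, 0.0243 to 0.731). The cluster was lower in *Hoxb2*, *Hoxb3*, *Hoxb4* and *Hoxa5*, the leading genes of culture tendon cells, with ratios of 0.188 to 0.375. Among the 11 culture clusters ranked, cluster 3 had the highest level for 12 of the 39 genes and fibrocartilage cells for 10. The same ranking was not made over all genes. Some of the 12 rest on few UMIs, since groups 12 and 13 had 3 and 4 UMIs in cluster 3.

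Culture cluster 8, annotated as muscle, had the most anterior *Hox* profile of the culture clusters that held over 500 *Hox* UMIs. Its *Hox* sum was 121 CPM (113 to 130) and its mean paralogue group 3.20. It carried little of the muscle factor *Myog* (36.8 CPM, against 1331 CPM in tail muscle cells) and kept the pluripotency genes *Pou5f1* (351 CPM) and *Nanog* (78.3 CPM). Compared with culture tendon cells, 25 of 29 *Hox* genes were lower and 2 higher, beside 43.4% of all genes (20.1% higher, 23.3% lower). *Hoxb1* was higher, at 14.4 against 0.241 CPM (59.6, 22.5 to 223), and was also high in D6 PM somite-like cells. Over the 39 genes its profile was most like those cells, with a Spearman's rho of 0.90.

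The tail nerve cluster was the one in which *Hox* RNA was most abundant. Its 137 cells carried the neuronal genes *Rtn1* (2553 CPM) and *Tubb3* (1989 CPM). Of 37 *Hox* genes, 27 were higher than in tail tendon cells and 5 were lower, beside 43.8% of all genes (17.7% higher, 26.1% lower). Of the 39 genes, 23 had their highest tail level there, a count that was not made over all genes. HoxB carried 59.5% of the *Hox* UMIs, at 3653 CPM against 139 CPM in tendon cells, a ratio of 26.3 (24.8 to 27.9). *Hoxb8*, which is active in the spinal cord, was at 1180.2 CPM (1129 to 1233) against 6.02 CPM, a ratio of 196 (152 to 257). *Hoxb6* was at 441 against 6.12 CPM (72.0), *Hoxb7* at 304 against 5.73 CPM (53.1), *Hoxb5* at 186 against 6.32 CPM (29.4) and *Hoxb9* at 482 against 30.1 CPM (16.0). HoxA, HoxC and HoxD were each higher by 2.12 to 2.16 times. *Hoxa10* was level between the 2 populations, at 252 and 249 CPM. The 5 lower genes were the HoxA and HoxD genes *Hoxa11* (0.107), *Hoxa13* (0.272), *Hoxd12* (0.0896), *Hoxd13* (0.159) and *Hoxd1* (0.143, on 1 UMI). *Hoxc12* and *Hoxc13* were higher in nerve cells, at 167 against 56.7 CPM and 371 against 163 CPM, and so was *Hoxb13*, at 133 against 29.9 CPM. *Hoxd11* was higher too, at 213 against 95.1 CPM, while *Hoxc11* was at 67.6 against 72.5 CPM.

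Of the other tail clusters, muscle, skin cluster 7, Schwann-like, cluster 3 and endothelial cells were compared with tail tendon cells. Muscle cells, with *Myog* at 1331 CPM, were higher than tendon cells in 6 of 36 *Hox* genes and lower in 10, beside 29.4% of all genes (9.64% higher, 19.8% lower). *Hoxb8* (76.2 against 6.02 CPM, 12.6), *Hoxb7* (6.29) and *Hoxb6* (5.50) had the largest ratios, the same HoxB genes that led in nerve cells. Skin cells of cluster 7, with *Krt14* at 2446 CPM, were higher in 8 of 37 genes and lower in 15, beside 33.7% of all genes (10.8% higher, 22.9% lower). *Hoxa7* was at 103 against 13.5 CPM (7.59, 6.04 to 9.55) and *Hoxc13*, a gene of hair and nail, at 20.1 against 163 CPM (0.123, 0.0857 to 0.172). Schwann-like cells, with *Sox10* at 383 CPM, were higher in 8 of 33 genes and lower in 8, beside 24.4% of all genes (10.6% higher, 13.8% lower). Tail cluster 3, in which myeloid genes such as *Tyrobp* (549.8 CPM) stood beside *Dcn* (1505 CPM), was higher in 2 of 36 and lower in 15, beside 22.4% of all genes (8.99% higher, 13.4% lower). In it the HoxD sum was 0.245 times that of tendon cells (0.201 to 0.296), and posterior genes were 85.4% of *Hox* UMIs.

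Endothelial cells, found by *Cdh5* at 1446 CPM in the tail and 831 CPM in the culture, differed less between the libraries in their *Hox* sum than in its bands. The sums were 526 CPM in the tail and 485 CPM in the culture, a ratio of 0.922 (0.773 to 1.10), over 71 and 58 cells. The anterior ratio was 3.27 (1.999 to 5.31) and the posterior ratio 0.708 (0.502 to 0.976). Of only 12 *Hox* genes with enough UMIs, 2 were higher in the culture and 5 lower, beside 27.8% of all genes (12.5% higher, 15.4% lower). The 5 lower genes were *Hoxa7*, *Hoxa9*, *Hoxa10*, *Hoxb7* and *Hoxb9*. *Hoxb5* (3.94, 1.57 to 9.75) and *Hoxd10* (2.23, 1.05 to 4.53) were the higher ones. *Hoxd8* led in both, at 97.0 CPM in the culture and 84.0 CPM in the tail.

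Tail endothelial cells had few UMIs of HoxC and of groups 11 to 13. Compared with tail tendon cells, 20 of 36 *Hox* genes were lower and 6 higher, beside 36.7% of all genes (11.2% higher, 25.6% lower). HoxC had 5 UMIs in all (3.53 CPM), 0.00714 times the tendon level (0.00232 to 0.0167), and culture endothelial cells had no HoxC UMI. Groups 11 to 13 had 7 UMIs (4.94 CPM), 0.00903 times the tendon level (0.00363 to 0.0186). *Hoxc13* had none, so its level was at most 0.0130 times that of tendon cells. The genes that were higher were *Hoxb7* (13.1), *Hoxd8* (9.56), *Hoxd9* (5.60), *Hoxb8* (4.101), *Hoxa7* (3.76) and *Hoxb4* (2.83). With *Hoxa10* at 30.4 CPM against 249 CPM, the endothelial series ended near group 10.

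Single cells were then compared after each was thinned to 3000 UMIs, which left out 1157 shallower cells of the culture, 100 of the tail and 1006 of D6 PM. At least 1 *Hox* UMI was found in 71.9% of 2595 culture tendon cells (70.1 to 73.6) and 92.9% of 678 tail tendon cells (90.7 to 94.7). Before thinning, with median depths of 4918.5 and 13463 UMIs, these shares were 83.6% and 100%. In tail blood cells, which give the level of free RNA in that library, the share at 3000 UMIs was 2.40% (0.498 to 6.85), from a median depth of 8391.5 UMIs. The mean number of *Hox* genes with a UMI was 1.36 per culture tendon cell, 2.97 per tail tendon cell and 10.1 per tail nerve cell.

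The paralogue groups found in each cell were then counted. Thinning sets the total UMIs of a cell and not its *Hox* UMIs, so these shares also move with the *Hox* sum of a cluster. The most posterior *Hox* UMI of a cell came from groups 11 to 13 in 1.39% of culture tendon cells, 73.7% of tail tendon cells and 91.2% of tail nerve cells. In culture tendon cells the most frequent class was groups 4 to 8 (40.1%), with groups 9 and 10 in 15.2% of cells. Somite-like cells of D6 PM had 43.9% in groups 4 to 8 and 12.9% in groups 9 and 10. A group-13 UMI was found in 13 of 2595 culture tendon cells (0.501%) and 269 of 678 tail tendon cells (39.7%). In culture cluster 4, the pluripotent-like cells, it was found in 15 of 1081 (1.39%), and in tail blood cells in 1 of 125 (0.8%). UMIs of groups 1 to 5 and of groups 11 to 13 stood together in the same cell in 23.9% of tail tendon cells and 83.9% of tail nerve cells, against 0.578% of culture tendon cells.

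**Figure D5:**
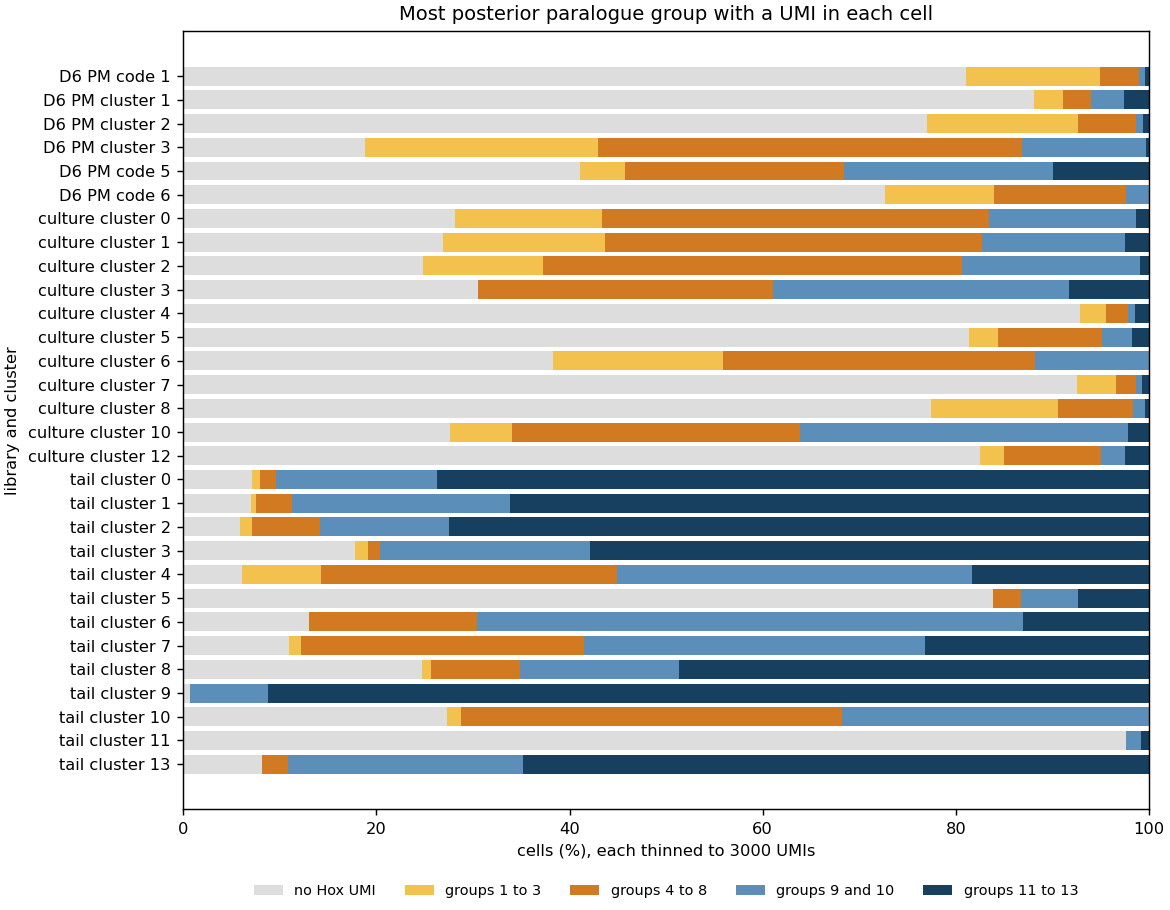
Share of cells (percent, each cell thinned to 3000 UMIs) by the most posterior paralogue group with a UMI, for each cluster of the 3 libraries. Groups 11 to 13 take 73.7% of tail tendon cells and 1.39% of culture tendon cells.

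Genes that act with or above *Hox* genes were read from lists, which were chosen with earlier results of these data known. TALE homeodomain proteins (Meis, Pbx and Pknox) bind DNA together with Hox proteins. Of 9, 4 were lower in culture tendon cells than in tail tendon cells and 1 higher, beside 30.1% of all genes. *Meis2* was at 80.5 against 394 CPM and *Meis1* at 42.9 against 141 CPM, and *Pknox2* was the higher one. Of 14 genes that set the timing and reach of *Hox* expression, 9 had enough UMIs, of which 3 were lower and 1 higher. *Gdf11*, the TGFβ-family ligand that sets the trunk-to-tail transition, was at 13.2 against 33.2 CPM. *Aldh1a2*, which makes retinoic acid, was at 7.11 against 35.4 CPM, and its receptor gene *Rarb* was at 11.4 against 30.6 CPM. *Cyp26a1*, which breaks retinoic acid down, was at 8.499 against 1.58 CPM. Of 14 Polycomb and Trithorax-type chromatin genes, *Cbx7* was higher and *Cbx8* lower, and 12 lay between.

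Between D6 PM somite-like cells and D10 culture tendon cells, 2 of 11 upstream genes were higher at D10 and 5 lower, beside 28.9% of all genes. *Aldh1a2* was at 223 CPM in somite-like cells and 7.11 CPM in culture tendon cells. *Lin28b* was at 47.5 against 1.39 CPM, and *Nr6a1*, an orphan receptor of the trunk stage, at 21.6 against 2.59 CPM. *Cdx1*, whose product binds *Hox* regulatory DNA, was at 8.88 CPM in somite-like cells and had no UMI in culture tendon cells. In culture cluster 8, *Nr6a1* was at 133 CPM and *Lin28a* at 154 CPM. Against culture tendon cells, 4 of 10 upstream genes were higher there and 2 lower, beside 43.4% of all genes.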

How the data were processed

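The authors deposited UMI counts per gene and cell, made with Cell Ranger, with multi-mapping reads ignored and cells filtered on mitochondrial share (above 7.5%) and on total transcripts (lowest and highest 2%). Per the labels the libraries were 10x 3′ libraries, and the genome build of the counts is not given in the sources used here. The deposited cluster codes were matched to the published cluster numbers by the share of cells with a UMI of each gene. For clusters 2, 3, 4 and 8 this numbering differs from that of the published cell numbers per cluster, so the names of those clusters rest on the gene match and on their markers. Python 3.11.15 with NumPy 2.4.6, SciPy 1.17.1, pandas 2.3.3 and Scanpy 1.11.5 was used here. Raw counts were summed by gene and cluster. Intervals were exact Poisson for levels, conditional binomial for ratios and Clopper-Pearson for shares. Zero counts were set to 3 over the group in ratios, and a bound past 1 gave no ratio. Scrublet called 1.48%, 0.439% and 1.36% of culture, tail and D6 PM cells as doublets, which were kept. Libraries shared between 3 and 10 cell barcodes. The rule for named genes took the members, of which 1 is in the sums and counts but is not reported here by itself, and beyond them genes of set lists of Hox partners, regulators, linked transcripts and cell type markers. A second *Hoxd4* row, outside the rule, was not added to *Hoxd4*. The members and lists were chosen with earlier results of these data known. In the GENCODE mouse annotation 9 of the 39 genes share exon sequence on the same strand with another gene (*Hoxa2*, *Hoxa3*, *Hoxa9*, *Hoxc5*, *Hoxc10*, *Hoxd3*, *Hoxd4*, *Hoxd10* and *Hoxd11*), so their levels are uncertain. Alternatives were thinning, another total, means over cells, other limits for a gene to count, and centred ratios, of which the last was chosen after seeing the data. The scripts were tested on simulated data.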

Additional observations from a re-analysis of the deposited data

How the results depend on the processing

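No paired analysis was possible because each group has 1 library, and for the same reason no replicate could be left out. Between culture and tail tendon cells no single-gene difference past the 2-fold limit changed direction under an alternative, and single genes of the other comparisons were not recomputed. The *Hox* sum of the culture relative to the tail was 0.376 in tendon cells when CPM was averaged over cells, 0.451 in proliferating tendon cells and 0.422 in fibrocartilage cells when cells were thinned to 3000 UMIs. The sum of tail nerve over tail tendon cells was 4.86 when thinned, 4.55 with mitochondrial, ribosomal protein and haemoglobin genes left out of the total and 4.57 as a mean over cells. The share of cells with a *Hox* UMI moved with depth, as more UMIs per cell find more genes. With 5000 UMIs per cell it was 86.4% in culture tendon, 98.3% in tail tendon, 92.6% in D6 PM somite-like and 9.04% in culture pluripotent-like cells. Without thinning it was 83.6%, 100%, 90.7% and 16.2%, and 7.81% in tail blood cells. The number of *Hox* genes 2-fold apart between culture and tail tendon cells was 29, between 23 and 29 under the other alternatives, and 30 with ratios centred on the median of all genes, an alternative chosen after seeing the data. The 23 were those whose whole interval lay past 2-fold. Single-gene ratios moved past their intervals for 8 genes, all on thinning, which leaves few UMIs per gene. The largest move was that of *Hoxb6*, from 1.05 to 3.59 on 4 tail UMIs. On thinning *Hoxa5* (1.996) left the count of 29, as did *Hoxa6* and *Hoxd1* with 19 UMIs each, and *Hoxb6* joined it. *Hoxd3* (1.97) left it with the smaller total. Depth limits the small clusters most, such as culture clusters 3 and 10 with 172 and 160 *Hox* UMIs.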

Other observations

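Non-coding transcripts that lie within the *Hox* clusters had levels of their own. *Hotairm1*, a transcript of the HoxA cluster, was at 98.7 CPM (91.0 to 107) in D6 PM somite-like cells, 19.6 CPM (17.5 to 21.8) in culture tendon cells and 4.54 CPM (3.33 to 6.06) in tail tendon cells. *Hoxa11os*, the antisense transcript of *Hoxa11*, was at 98.4 CPM (92.4 to 105) in tail tendon cells, above *Hoxa11* itself at 38.7 CPM, and at 0.663 CPM (0.331 to 1.19) in culture tendon cells. In tail nerve cells it was at 8.30 CPM (4.54 to 13.9). Whether the counting used strand is not stated in the sources used here, and without it the reads of *Hoxa11* and *Hoxa11os* cannot be told apart. In the D6 PM code 5 cells with high *Dcn*, *Hoxa11os* was at 19.0 CPM (15.6 to 22.8), where somite-like cells of the same library had no UMI of it.

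*Hoxb5os* was at 154 CPM (136 to 174) in tail nerve cells and 7.70 CPM (6.09 to 9.61) in tail tendon cells. It was lower in tail cluster 3 (2.47 CPM, 0.905 to 5.37) and in tail endothelial cells (0.706 CPM, on 1 UMI), where the HoxB sum was 1.32 and 1.56 times that of tendon cells. In culture tendon cells it was at 40.6 CPM (37.6 to 43.8), above *Hoxb5* at 11.7 CPM. *Hotair*, a transcript of the HoxC cluster, had 97 UMIs (9.58 CPM) in tail tendon cells, 34 UMIs (20.2 CPM) in tail nerve cells and none in culture tendon cells or in endothelial cells of either library. Of 10 listed *Hox*-linked transcripts with enough UMIs, among them the protein-coding gene *Evx1*, 6 were at least 2-fold higher in culture tendon cells than in tail tendon cells and 2 were lower, beside 30.1% of all genes.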
